A study of Homo sapiens with 8 samples.

Results

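The 9 genes described here are interferon-stimulated genes, taken from the count table by their gene symbols: ISG15, IFIT1, IFIT2, IFIT3, IFI6, MX1, OAS1, IRF7 and IRF9. They are 9 of the 23459 genes in the table, and 8 of them had enough counts to be tested. RNA was measured in Hct116 cells, an established human colorectal carcinoma line. For 16 h the cells had been given either 30 μM lenalidomide or only its solvent DMSO, which served as control. There were 4 libraries per treatment, made from total RNA of the same line, and the labels name no other difference between the groups. The labels give DMEM with serum as the medium, while by the methods of the study it was exchanged, at the start of treatment and in both groups, for one in which arginine and lysine carried other isotopes. In the matching protein experiment 2 replicates per treatment ran the label exchange in reverse, and which libraries these are is not given in the sources used here. The study's design text calls the replicates biological, while its methods call the replicates of the matching protein experiment technical, so that p-values measure the spread between these libraries, which may be technical in part.

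Interferons are secreted proteins that cells release on sensing foreign or misplaced nucleic acid. Type I and type III interferons bind cell surface receptors, which activate the kinases JAK1 and TYK2. These phosphorylate STAT proteins, which join IRF9 in a complex named ISGF3 that binds the interferon-stimulated response element in promoters. Many of the genes switched on in this way restrict viruses, and several, among them IRF7 and IRF9, encode parts of the pathway itself. In lymphoid cells lenalidomide is known to raise such genes after the cereblon ligase degrades the transcription factors IKZF1 and IKZF3. The comparison asks whether these genes change in a cell line of another lineage.

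The response element is shown first, because it is the sequence through which ISGF3 acts. The genes were chosen as known interferon-stimulated genes, which is not independent of this element. It was searched as GAAANNGAAA, or TTTCNNTTTC on the other strand, in RefSeq promoter windows on GRCh38.p14, which run from 250 bases before to 50 bases after a transcription start. Windows were matched for 7 of the 9 genes, and none was matched for IFIT2 or IRF7. The build differs from that of the counts, and no position was carried from one to the other. The stretches around each match are given 5′ to 3′ on the strand of the gene, with the element in capitals.
ISG15, chr1:1013369-1013414, plus strand: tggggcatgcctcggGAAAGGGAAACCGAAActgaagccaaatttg
IFI6, chr1:27672261-27672363, minus strand: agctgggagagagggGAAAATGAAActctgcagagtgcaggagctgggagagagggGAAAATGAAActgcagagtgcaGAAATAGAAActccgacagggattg
IFIT1, chr10:89392492-89392544, plus strand: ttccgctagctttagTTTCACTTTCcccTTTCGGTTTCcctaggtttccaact
IFIT3, first start, chr10:89327826-89327899, plus strand: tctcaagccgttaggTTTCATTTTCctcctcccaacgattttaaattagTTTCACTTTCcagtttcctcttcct
IFIT3, other start, chr10:89332420-89332502, plus strand: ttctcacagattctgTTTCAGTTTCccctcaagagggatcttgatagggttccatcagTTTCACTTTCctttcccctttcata
MX1, first start, chr21:41420554-41420593, plus strand: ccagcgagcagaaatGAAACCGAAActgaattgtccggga
MX1, last start, chr21:41431839-41431878, plus strand: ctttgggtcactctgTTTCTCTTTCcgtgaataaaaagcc

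In ISG15 the 2 matches overlap and begin 113 and 107 bases before the start, so that they read as 1 unbroken stretch of capitals. IFI6 had 3 matches, at 156, 115 and 93 bases before its start, and the first and the second lie in repeats of nearly the same letters. The pair in IFIT1 begins 116 and 103 bases before the start, and each of both IFIT3 windows held 2 matches. Of the 3 windows of MX1 the first held a match that begins at base 12 of the transcript, the next held none and the last held a match 196 bases before its start. The windows of IRF9 and OAS1 held no match. Each of these held 1 match to the gamma-activated sequence, searched as TTCNNNGAA, which reads the same on both strands and which STAT pairs bind. In the last window of MX1 a match to that sequence overlaps the response element.

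The element was thus found in 5 of the 7 members with a window. It was found in 24 of the 35 other interferon-stimulated genes with a window, or 68.6%, and in 0 of 10 interferon receptor and JAK-STAT genes. Among the 16497 genes of the count table with a window it was found in 677, or 4.10%. By window the share was 3.57% of all 35116 promoter windows, against 7.66% for the gamma-activated sequence. The high shares in both sets of interferon-stimulated genes may follow from how these sets were chosen. A match describes these letters only, since no binding was measured.

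**Figure D1:**
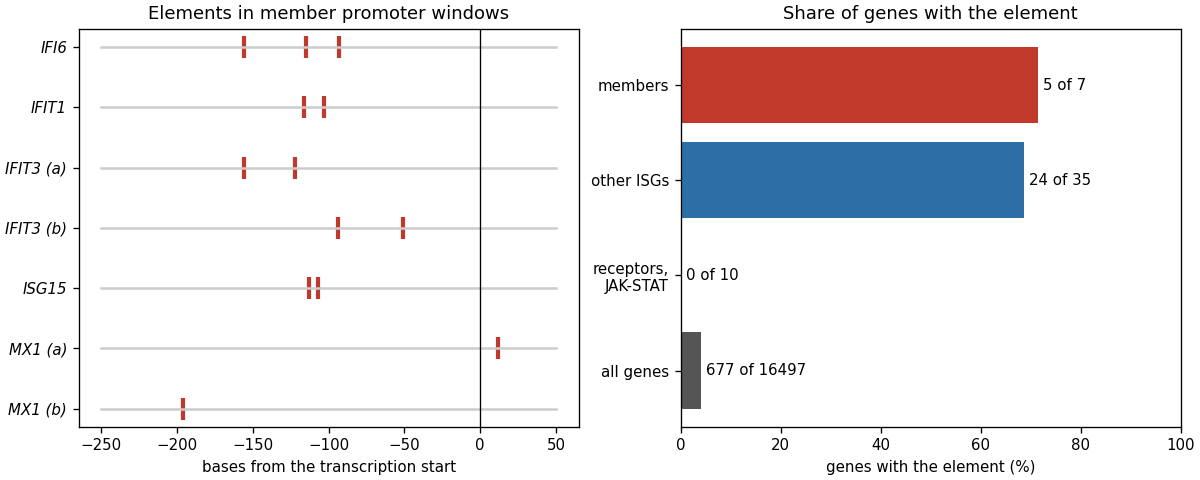
Left, first base of each match to the interferon-stimulated response element in the promoter windows of the members that held one, in bases from the transcription start (grey line, window searched; a and b, different starts of one gene). Right, share of genes with a window that hold the element, in percent, with the number of genes beside each bar, from 5 of 7 members to 677 of 16497 genes of the table.

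The libraries held between 28218471 and 37473413 counts, and each lenalidomide library was smaller than each DMSO library. Counts were scaled to CPM (counts scaled to library size, adjusted by TMM factors between 0.971 and 1.02), and levels between genes are compared in RPKM, which is CPM per kilobase of exon. Of the epithelial markers, EPCAM had 343 ± 19.1 RPKM and KRT19 575 ± 49.1 RPKM with DMSO (SD, n = 4), while VIL1 had 7 counts over the 8 libraries. Of 9 leukocyte markers 0 passed the count filter. They summed to between 0.723 and 0.965 CPM with DMSO and to between 0.638 and 1.28 CPM with lenalidomide. PTPRC, the pan-leukocyte surface phosphatase, had 4 counts over the DMSO libraries and 19 over the lenalidomide libraries, and its part in any value below was not tested. ITGAM went the other way, with 43 and 24, as did CD8A with 45 and 40 and LYZ with 14 and 9. The other leukocyte markers had between 0 and 9 counts over either group. In bulk RNA, fewer cells of a type and less RNA per cell cannot be told apart.

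ISG15 was the one member expressed at a high level. Its RPKM was 35.2 ± 1.30 with DMSO and 34.2 ± 4.64 with lenalidomide (SD, n = 4 each), and 91.4% of all genes in the table were at or below its DMSO level. IFI6 followed at 3.83 ± 0.236 RPKM with DMSO and IRF9 at 1.79 ± 0.0815 RPKM. IFIT3 and IFIT1 stood at 0.987 ± 0.255 and 0.882 ± 0.181 RPKM, with overlapping ranges. IFIT2 and IRF7, at 0.427 ± 0.113 and 0.422 ± 0.0686 RPKM, overlapped as well. MX1 had 0.146 ± 0.0487 RPKM and OAS1 0.0253 ± 0.0295 RPKM. All other neighbours in this order had DMSO ranges that did not overlap, and ISG15 was 9.17 times IFI6 in the mean.

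**Figure D2:**
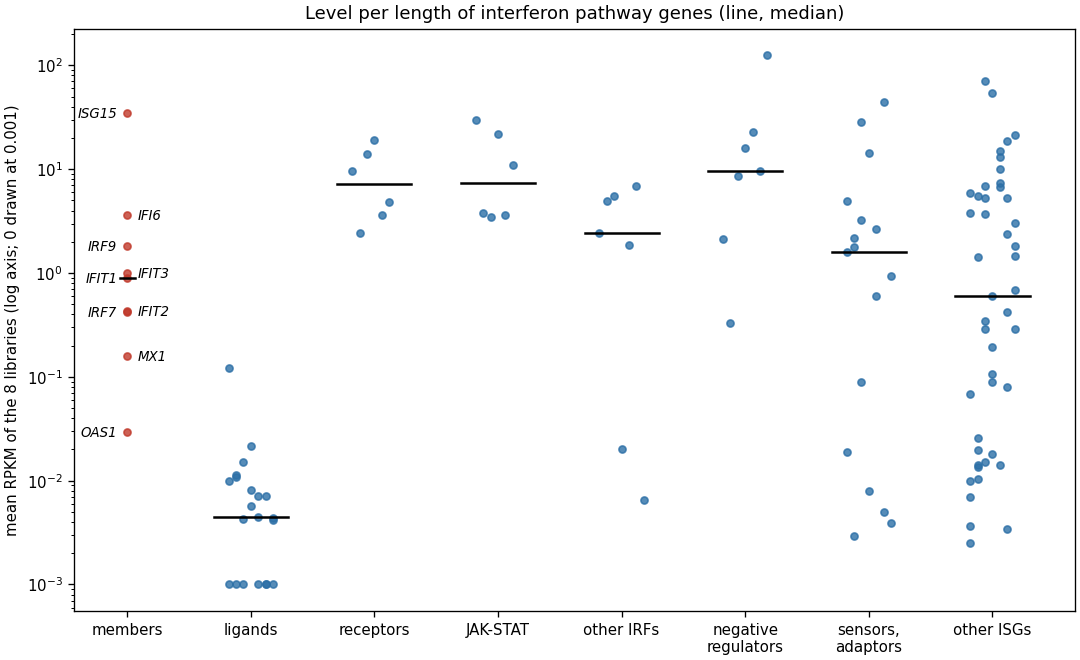
Mean RPKM of the 8 libraries on a log axis for the 9 members (red) and for the genes of 7 interferon pathway lists (blue), 1 point per gene, with a line at the median of each list. ISG15 stands above each receptor and JAK-STAT gene, the other members lie below the medians of these lists, and the ligands lie lowest.

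ISG15 encodes a ubiquitin-like protein that is joined to other proteins and also secreted. The gene spans 936518 to 949920 on the plus strand of chromosome 1 (GRCh37, as for all positions that follow). Its CPM was 22.3, 24.3, 23.1 and 23.9 in DMSO replicates 1 to 4, and 21.3, 27.1, 22.6 and 20.1 in lenalidomide replicates 1 to 4. The lenalidomide values spread on both sides of the DMSO values, with the highest and the lowest of the 8 libraries both among them. The log2 fold change was -0.038 (standard error 0.084, adjusted p = 0.999, edgeR's quasi-likelihood test), with a 95% confidence interval from -0.22 to 0.14, or from 0.860-fold to 1.10-fold. This was the narrowest interval among the members.

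The IFIT genes encode proteins of tetratricopeptide repeats that bind viral RNA or one another, and lie side by side on chromosome 10. IFIT1 (91152303 to 91166244, plus strand) gave CPM values of 4.68, 4.88, 2.98 and 4.14 in DMSO replicates 1 to 4 and of 4.28, 5.25, 3.92 and 4.09 in lenalidomide replicates 1 to 4. DMSO replicate 3 was the lowest and lenalidomide replicate 2 the highest, and the other values were interleaved. Its log2 fold change was 0.071 (95% confidence interval -0.25 to 0.39). The CPM of IFIT2 (91043451 to 91069028) was 1.87, 1.79, 1.14 and 1.16 with DMSO and 1.78, 1.60, 1.09 and 1.70 with lenalidomide, in the same order of replicates. Over both treatments 5 values lay between 1.60 and 1.87 CPM and the other 3 between 1.09 and 1.16 CPM, and the ranges almost coincided. For IFIT3 (91087064 to 91137230) the values were 2.41, 3.56, 2.72 and 1.93 CPM with DMSO, against 2.63, 3.17, 2.43 and 2.46 with lenalidomide. All lenalidomide values of IFIT3 lay inside the DMSO range. The log2 fold changes were 0.043 for IFIT2 (95% confidence interval -0.42 to 0.50) and 0.015 for IFIT3 (-0.36 to 0.39).

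Exons of IFIT2 and IFIT3 overlap exons of LIPA, lysosomal acid lipase, on the opposite strand in GENCODE annotation. LIPA had between 29.4 and 35.7 CPM in the 8 libraries, many times the level of either gene. Counting was run with default settings, which do not use the strand, so that reads of an overlap cannot be told apart. The counts rest on other gene models than those of GENCODE, and whether these overlap as well was not checked. The log2 fold change of LIPA was -0.096 (95% confidence interval -0.25 to 0.055). IFIT1 and IRF7 had no exon overlap in GENCODE annotation. Exons of IRF9 overlap those of a protein-coding gene on the same strand and of a noncoding gene on the other. Exons of ISG15 overlap a pseudogene, and those of IFI6 and OAS1 overlap noncoding genes.

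IFI6 encodes a small hydrophobic membrane protein with antiviral activity, and spans 27992575 to 27998723 on the minus strand of chromosome 1. Its CPM was 2.997, 3.45, 3.39 and 3.35 in DMSO replicates 1 to 4 and 2.92, 3.17, 2.37 and 3.29 in lenalidomide replicates 1 to 4. The other DMSO values were above every lenalidomide value, while that of DMSO replicate 1 lay among them. The log2 fold change was -0.17 (standard error 0.13, 95% confidence interval -0.44 to 0.10). In edgeR's quasi-likelihood test its p of 0.204 (adjusted, 0.999) was the smallest of the members and ranked 2423 among the 13925 genes tested. Its two-sided exact permutation p was 0.171.

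MX1, a dynamin-like GTPase that traps viral nucleocapsids, lies on chromosome 21 from 42791947 to 42841998. Its counts were 21, 26, 10 and 20 with DMSO and 20, 28, 12 and 17 with lenalidomide. In CPM these were 0.562, 0.717, 0.292 and 0.528 with DMSO, and 0.648, 0.844, 0.365 and 0.589 with lenalidomide. Each lenalidomide value was above the DMSO value of the same replicate number, but the ranges overlapped over most of their length and the numbers were not shown to pair the libraries. The log2 fold change of 0.21 was the largest in size among the members, and its 95% confidence interval was also the widest, from -0.45 to 0.88. Exons of MX1 overlap those of TMPRSS2 on the opposite strand in GENCODE annotation, and TMPRSS2 had 4 counts in all with lenalidomide and none with DMSO.

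OAS1 makes the oligoadenylate that activates RNase L. It lies on chromosome 12 from 113343661 to 113371024 and was below the count filter. Its counts were 0, 5, 4 and 0 in the DMSO libraries and 0, 0, 2 and 8 in the lenalidomide libraries. That is 9 counts against 10 over each group, with 4 of the 8 libraries at 0. A library at 0 allows up to 3 counts, which covers counting error only. No fold change is given. A difference was not detected (two-sided exact permutation p = 0.886), and counts this low bound its size only loosely.

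IRF7 and IRF9 encode the transcription factors among the members. IRF7, the factor that amplifies type I interferon genes, spans 612553 to 615983 on the minus strand of chromosome 11. The DMSO libraries had 0.856, 0.827, 0.906 and 1.16 CPM, and the lenalidomide libraries 1.07, 1.06, 0.882 and 0.693 CPM. Replicate 4 was the highest of the DMSO libraries and the lowest of all 8 with lenalidomide. Its log2 fold change was -0.016 (95% confidence interval -0.46 to 0.43). IRF9, the DNA-binding part of ISGF3, lies on chromosome 14 from 24630443 to 24637252. Its DMSO values were 4.23, 4.03, 4.50 and 4.25 CPM, and its lenalidomide values 4.60, 3.86, 4.10 and 5.20 CPM. The DMSO values lay inside the range of the lenalidomide values. Its log2 fold change was 0.060 (95% confidence interval -0.18 to 0.30).

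**Figure D3:**
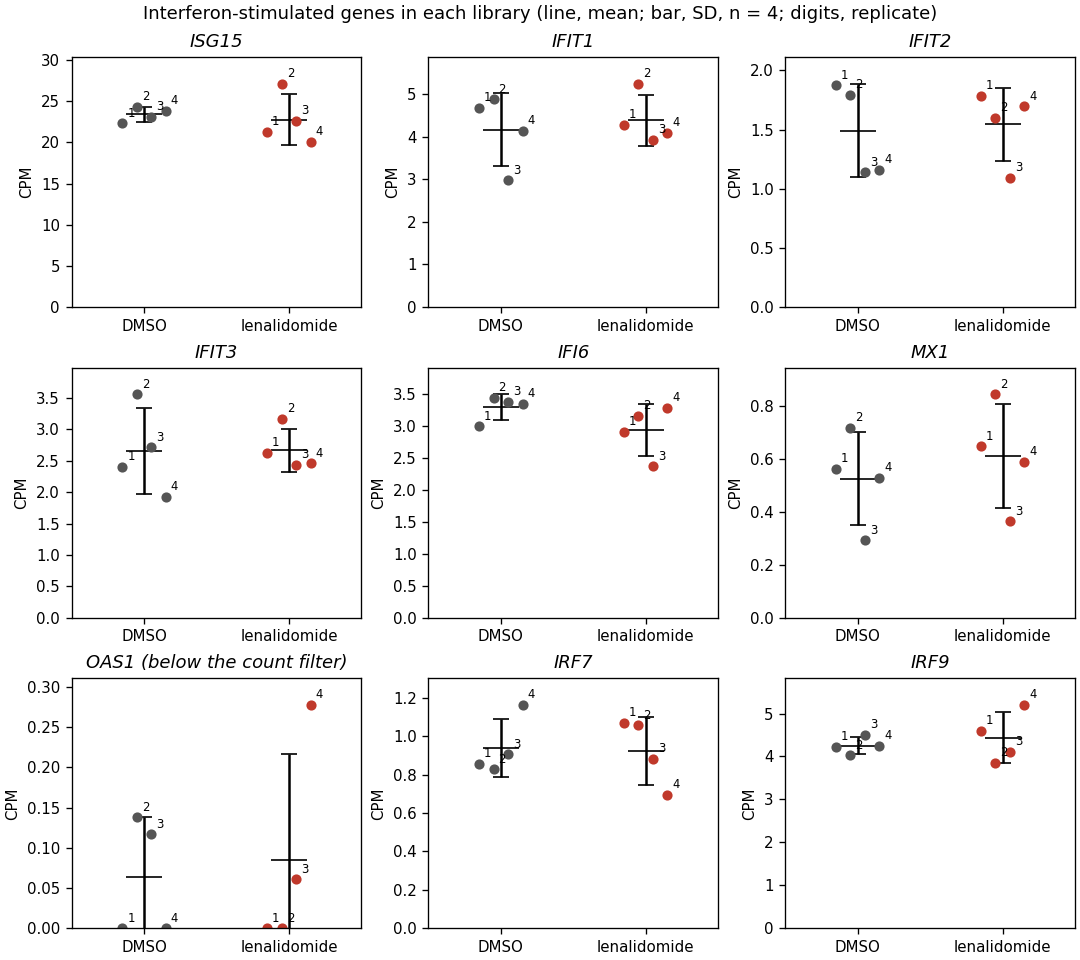
CPM of each member in the 4 DMSO (grey) and the 4 lenalidomide (red) libraries, on linear axes from 0. Points are libraries with their replicate number, lines are means and bars SDs (n = 4, drawn down to 0 at the lowest). The groups overlap for each of the 9 genes.

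None of the 8 members tested passed edgeR's quasi-likelihood test at an adjusted p under 0.05, and 0 had an unadjusted p under 0.05. DESeq2 and edgeR's likelihood ratio test gave 0 by both measures too. Over all 13925 genes tested, 0.0144% passed it, which is 2 genes. Without adjustment for the number of genes, 3.26% were at p under 0.05 and higher and 0.919% lower with lenalidomide. The groups overlapped for all 9 members, where 1.24% of the genes tested had all 4 lenalidomide values above all 4 DMSO values and 0.84% had them all below. The two-sided exact permutation p of the members ran from 0.171 to 1, and the smallest that 4 libraries against 4 allow is 0.0286. With so few calls over all genes, 0 of 8 is near the background. Of the members that passed the filter 5 had a log2 fold change above 0 and 3 below. Their median was 0.029, beside 0.0025 over all genes tested.

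The 95% confidence intervals bound the sizes of increase that these values leave room for. In folds, their upper limits were 1.10 for ISG15, 1.07 for IFI6, 1.23 for IRF9, 1.31 for IFIT1 and IFIT3, 1.35 for IRF7, 1.41 for IFIT2 and 1.84 for MX1. A p above the threshold does not show that levels were the same.

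**Figure D4:**
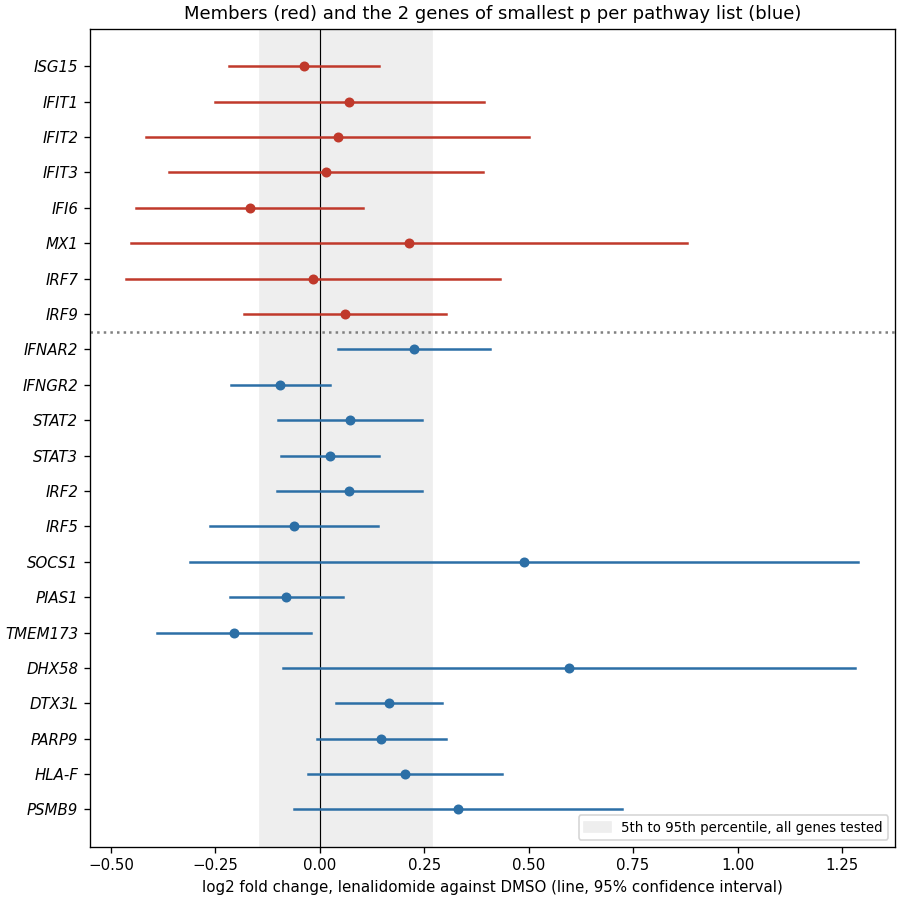
Log2 fold change of lenalidomide against DMSO with its 95% confidence interval for the 8 tested members (red) and for the 2 genes of smallest p in each interferon pathway list (blue). Each of the member intervals includes 0, and the grey band marks the 5th to 95th percentile of all genes tested, from -0.14 to 0.27.

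The members differed in how far replicates lay apart. With DMSO, the coefficient of variation was 3.70% for ISG15, 4.54% for IRF9 and 6.17% for IFI6, near or below the 3.42%, 8.04% and 9.13% that counting error alone gives. It was 20.5% for IFIT1, 26.5% for IFIT2 and 25.9% for IFIT3, against 8.09%, 13.5% and 10.2% from counting. With lenalidomide the order changed. ISG15 varied by 13.6%, IFI6 by 13.9% and IRF9 by 13.3%, each above its DMSO value, whereas IFIT1 varied by 13.5%, IFIT2 by 20% and IFIT3 by 12.8%, each below. MX1 had the widest spread of the tested members, 33.5% with DMSO and 32.3% with lenalidomide, where counting gives 22.8% in both. IRF7 varied by 16.3% and 19.1%, near the 17.1% and 18.5% from counting. These differences in spread rest on 4 libraries per group and were not tested.

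The members were also compared by the order in which they place the libraries, regardless of treatment. Of the 28 pairs that can be formed from the 8 libraries, IFIT1 and MX1 put 25 in the same order, the most. IFIT1 and IFIT2 put 21. MX1 shared 20 with IFIT2 and 20 with IFIT3. ISG15 and IRF9 put only 4 pairs in the same order, the fewest. Over the 28 pairs of tested members the median was 14 of 28, with 13 member pairs above it, 6 at it and 9 below. The likeness is a description of 8 libraries, in which all genes share the depth of a library. Genes with few counts, such as MX1 with 10 to 28 per library, enter it with their counting error. How often pairs taken from all tested genes reach such counts was not computed, so no link between members is read from it.

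Within each treatment, IFIT1 and MX1 ranked the replicate numbers from highest to lowest as 2, 1, 4 and 3, with DMSO and with lenalidomide alike. These were 2 of the 8 members tested with the same full order in both treatments, a match found for 4.57% of all genes tested. The 2 genes put 25 of the 28 library pairs in the same order, so they are not independent matches. For MX1, DMSO replicates 1 and 4 differ only as 21 and 20 counts, where counting error is 22.8%. The same number was highest in both treatments for 5 members, ISG15, IFIT1, IFIT2, IFIT3 and MX1, against 26.7% of all genes. Among the single libraries, lenalidomide replicate 2 had the highest value of all 8 for ISG15, IFIT1 and MX1 and for 6 of 30 other interferon-stimulated genes tested, where 12.4% of all genes were highest. DMSO replicate 1 had the highest value for IFIT2 and for 8 of these 30 genes, the most of any library, where 10.2% of all genes were highest. DMSO replicate 3 had the highest value for 0 members and 0 of these 30 genes, where 17.3% of all genes were highest there. Lenalidomide replicate 4 held the most extremes over all genes, being highest for 20.4% and lowest for 20.5%. Among members it was highest for IRF9 and lowest for ISG15 and IRF7, and it had the fewest counts of the 8 libraries and the most genes with a count, 19568.

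**Figure D5:**
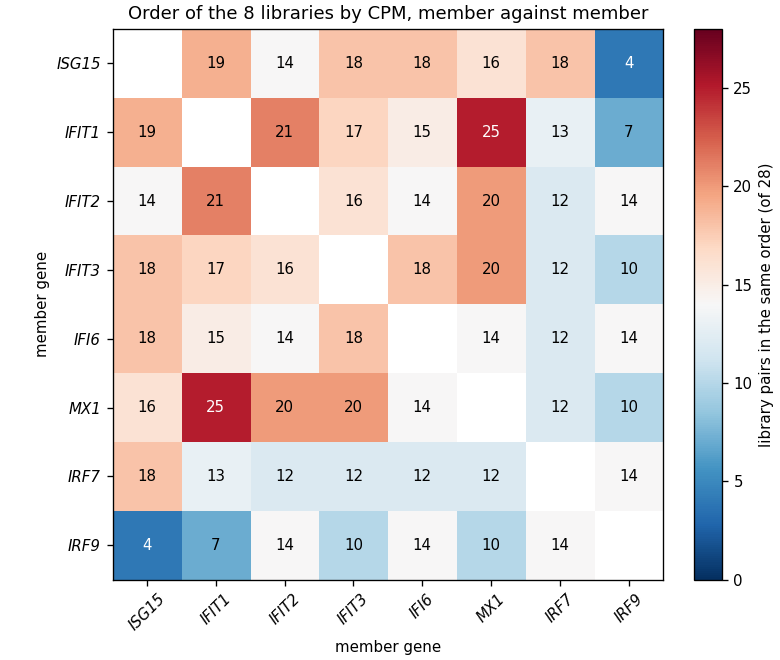
Number of the 28 pairs of libraries that 2 members place in the same order by CPM, for the 8 tested members. IFIT1 and MX1 agree in 25 pairs, and ISG15 and IRF9 in 4.

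All genes that averaged 1 CPM or more were compared with the members in this way. PRDX1, 1 of 2 genes at that count, ordered the libraries exactly as ISG15 did, REEP6 as IFIT1 did and LOC155060 as IRF9 did, each in 28 of 28 pairs. These are the nearest of 12597 genes over only 8 libraries.

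Upstream of the members, the receptor and JAK-STAT genes all passed the count filter and the ligands did not. None of the 21 interferon genes listed passed the count filter, and 7 of them had no count in any library. IFNE, an epithelial type I interferon, had the most, with 24 counts over the DMSO libraries and 24 over the lenalidomide libraries. All 6 receptor genes were tested and had at least 1 RPKM, led by IFNGR2 at 19.6 ± 0.775 RPKM and IFNGR1 at 14.3 ± 0.308 RPKM with DMSO (SD, n = 4). All 6 JAK-STAT genes were tested too. JAK1 stood at 29.5 ± 2.18 RPKM with DMSO and 29.6 ± 1.08 with lenalidomide. STAT2, a partner of IRF9 in ISGF3, stood at 3.53 ± 0.159 RPKM with DMSO, above IRF9.

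IFNAR2, a chain of the type I interferon receptor, moved most among the receptors. Its CPM was 7.47, 6.70, 6.57 and 7.10 in the DMSO libraries and 7.59, 7.99, 8.78 and 8.17 in the lenalidomide libraries, without overlap. Its log2 fold change was 0.22 (95% confidence interval 0.043 to 0.41). It was at unadjusted p = 0.0191, adjusted p = 0.999, in edgeR's quasi-likelihood test, and at unadjusted p = 0.0582 without lenalidomide replicate 3. Of the 6 receptor genes, 3 had a log2 fold change above 0 and 3 below.

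Among nucleic acid sensors and adaptors 12 of 17 were tested. TMEM173, which encodes the DNA-sensing adaptor STING, gave 6.56, 6.04, 6.13 and 6.10 CPM in the DMSO libraries, against 5.41, 5.22, 5.20 and 5.72 CPM after lenalidomide. All lenalidomide values were below all DMSO values, and the log2 fold change was -0.21 (unadjusted p = 0.0318, adjusted p = 0.999 by the same edgeR test). The unadjusted p of TMEM173 was 0.0595 with DESeq2 and 0.055 in edgeR with the replicate number as a block. In edgeR without 1 library it was above 0.05 for DMSO replicates 1 and 4 and lenalidomide replicates 1, 2 and 3, and reached 0.0769. DHX58, an RNA-sensing helicase relative, had between 6 and 12 counts per library and a log2 fold change of 0.60 with a 95% confidence interval that included 0. TBK1, the kinase that activates IRF3, was the sensor-side gene with the highest level, 45.5 ± 1.10 RPKM with DMSO and 43.2 ± 2.58 with lenalidomide. EIF2AK2, the double-stranded RNA kinase PKR, followed at 27.7 ± 1.49 and 29.3 ± 1.42 RPKM.

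Of 45 other interferon-stimulated genes 30 were tested, with log2 fold changes from -0.17 to 0.64, 16 above 0 and 14 below, and a median of 0.021. None passed edgeR's quasi-likelihood test after adjustment and 1 had an unadjusted p under 0.05. That was DTX3L, a ubiquitin ligase and partner of PARP9. Its CPM was 20.4, 19.3, 19.4 and 20.7 in the DMSO libraries and 21.7, 22.7, 21.9 and 23.2 in the lenalidomide libraries, with a log2 fold change of 0.16 (unadjusted p = 0.0147). PARP9 had a log2 fold change of 0.15 with a 95% confidence interval from -0.0066 to 0.30. The highest levels were those of LGALS3BP at 70.8 ± 2.99 RPKM and ADAR, an RNA-editing deaminase, at 54.1 ± 2.61 RPKM with DMSO. The list covers the whole range of levels seen in the members. The relatives of members, chosen after their values were seen, had levels of their own: IFIT5 had 15.3 ± 1.29 RPKM and OAS3 6.78 ± 0.205 RPKM with DMSO, while MX2 had 8 counts and OAS2 17 over all 8 libraries. RSAD2, IFI44L, XAF1 and CXCL10, common markers of an interferon response, were below the count filter, with at most 22 counts each in all. They too were named after their values were seen, and IFI27, OASL, IFI35 and BST2 of the same list passed the filter. IFI27 gave the log2 fold change of 0.64, on 4 to 12 counts per library, with a 95% confidence interval from -0.14 to 1.42.

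USP18, which removes ISG15 from proteins and damps the receptor, was at 2.15 ± 0.0826 RPKM with DMSO and 2.09 ± 0.315 with lenalidomide and was also chosen after its values were seen. Of the 7 negative regulators 0 had an unadjusted p under 0.05. SOCS1, an inhibitor of JAK kinases, had the smallest p of them and a log2 fold change of 0.49 with a 95% confidence interval from -0.31 to 1.29, on 8 to 23 counts per library. It was 0.17 without lenalidomide replicate 1 and 0.78 without DMSO replicate 1. PTPN11, a phosphatase with many roles, had the highest level at 124 ± 9.69 RPKM with DMSO. Of the other interferon regulatory factors 5 were tested, among them IRF3 at 5.45 ± 0.640 RPKM with DMSO, while IRF4 and IRF8, known from lymphoid and myeloid cells, were below the filter.

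Antigen presentation genes, which interferon gamma raises, gave 12 of 14 genes tested, 0 with an unadjusted p under 0.05 and a median log2 fold change of -0.0096. B2M, the light chain of class I molecules, stood at 299 ± 19.9 CPM with DMSO (SD, n = 4), against 283 ± 24.7 CPM after lenalidomide. HLA-F stood at 2.67 ± 0.0496 CPM with DMSO, against 3.07 ± 0.109 CPM after lenalidomide, without overlap, and a log2 fold change of 0.20 with a 95% confidence interval that included 0. PSMB9, an immunoproteasome subunit, had a log2 fold change of 0.33 (95% confidence interval -0.062 to 0.72). Without lenalidomide replicate 3 that change of PSMB9 was 0.19. The table gives HLA-F an exonic width of 30965 bases, far beyond 1 copy of the gene, so that levels per length are not given for these genes.

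Over all 123 pathway genes outside the members, 78 were tested, 0 passed edgeR's quasi-likelihood test after adjustment, 2 were higher and 1 lower at an unadjusted p under 0.05, and the median log2 fold change was 0.0047. These 3 stand beside 3.26% and 0.919% of all genes tested. The groups stood apart for 4 of the 78 genes higher and for 1 lower, beside 1.24% and 0.84% of all genes tested. The 4 genes are a larger share of the 78 than 1.24%, and this was not tested.

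The transcription factors that the cereblon ligase degrades in lymphoid cells given lenalidomide had few counts. IKZF1 had 5 counts over the DMSO libraries and 6 over the lenalidomide libraries, and IKZF3 had 24 and 30. Neither passed the filter. CRBN, the receptor for the drug, was at 9.87 ± 0.704 RPKM with DMSO and 9.63 ± 0.363 RPKM with lenalidomide. Of the substrates it recruits, CSNK1A1 stood at 133 ± 2.69 RPKM and ZFP91 at 58.8 ± 4.31 RPKM with DMSO. RBX1, the RING subunit of the ligase, had a log2 fold change of -0.19 (95% confidence interval -0.35 to -0.024, unadjusted p = 0.0275, adjusted p = 0.999, edgeR's quasi-likelihood test), with overlapping groups. Its unadjusted p in edgeR was above 0.05 without DMSO replicate 2 or 4 or lenalidomide replicate 2 or 4, and reached 0.106.

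Genes with the response element in a promoter window were also counted, whatever their known function. Of 418 such genes tested, 0 passed edgeR's quasi-likelihood test after adjustment, 3.11% were higher and 0.957% lower at an unadjusted p under 0.05, and the median log2 fold change was -0.0032. Of 10431 genes tested without the element, 3.18% were higher and 0.920% lower, with a median of 0.00089. Both sets were close to the shares over all genes.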

How the data were processed

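Per the labels and the methods of the study, total RNA libraries (ScriptSeq v2) were sequenced on an Illumina instrument, and the authors used QuasR to align them to hg19, splicing allowed. The deposited values are raw read counts per UCSC known gene, without normalization. Tool versions for alignment are not given in the sources used here. Of 23459 genes, 70 without a symbol held 0.0223% of the counts and were kept. Members, pathway lists and tests were chosen with earlier results of these data known.

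The tests were run with edgeR 4.0.16 and limma 3.58.1 under R 4.3.3. Genes were kept by filterByExpr (minimum count 10, minimum total 15), scaled by TMM and tested by the quasi-likelihood test, with Benjamini-Hochberg adjustment over 13925 genes and a threshold of 0.05. Intervals are at 95%. They and the SDs include replicate spread, while PCR duplicates cannot be recognised. RPKM uses the exonic width deposited with the counts. Groups follow sample titles. Exact permutation tests compared mean CPM. The fits were tested on simulated counts. Alternatives were RLE scaling, DESeq2 1.42.0, the likelihood ratio test, other filters, a replicate block and leaving out each library. Positions are from GENCODE v44 on GRCh37, and promoters from RefSeq on GRCh38.p14. Named genes were all members and, per list, the 2 of smallest p and the 2 of highest RPKM, besides CRBN, IKZF1, IKZF3, CSNK1A1 and ZFP91, and the gene that orders the libraries most like each member. Some genes that this rule names are not reported here.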

Additional observations from a re-analysis of the deposited data

Results flagged for a closer look

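For the genes named, 94 sets of 4 same-treatment values were examined for a single distant library. There were 3 such sets, none of a member, and about 4.7 are reached by chance (1 in 20). IRF5 stood at 8.11 CPM in the library of DMSO replicate 2, the other DMSO libraries at 6.76 to 6.85 CPM. The library of DMSO replicate 1 gave TBK1 146 CPM, where the other 3 gave 138 to 140 CPM. It also gave HLA-F 2.60 CPM, where the other 3 gave 2.69 to 2.70 CPM.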

How the results depend on the processing

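The count of members with an adjusted p under 0.05 was 0 in each alternative run, and so was that of the other pathway genes. The count of members with an exact permutation p under 0.05 was 0 under RLE scaling, no scaling factor and log2 CPM. Without 1 library an exact test cannot pass 0.05, so it was not run. Over all genes the count of 2 genes was 12 by the likelihood ratio test, 9 by DESeq2 and 4 when the filter was lowered to 1 count, and it ran from 1 to 2 without each library in turn (1 without any library but lenalidomide replicate 4). With the replicate number as a block it was 6. The block left members and pathway genes at 0. Deviations of same-numbered libraries correlated at 0.028, -0.024, 0.031 and 0.27 for replicates 1 to 4. Whether the numbers pair the libraries was not settled by these values, and the main fit did not pair them. Of 112 values for the 8 members, 98 had the direction and side of the threshold first found and 14 changed sign, all when 1 library was left out. Log2 fold changes then ran from -0.13 to 0.017 for ISG15, -0.061 to 0.15 for IFIT1, -0.066 to 0.18 for IFIT2, -0.11 to 0.19 for IFIT3, -0.090 to 0.11 for IRF7 and -0.022 to 0.12 for IRF9. IFI6 stayed below 0 (-0.23 to -0.077) and MX1 above it (0.0082 to 0.40). Of the other genes, STAT3 ran from -0.011 to 0.049 and IRF5 from -0.099 to 0.0054. The cause was not tested. Depth limits MX1 and OAS1 most, with at most 28 counts per library.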
